A study of Homo sapiens with 12 samples.

Results

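The 10 genes described here encode inflammatory cytokines and chemokines: CXCL8, CXCL1, CXCL2, CXCL3, CCL2, CCL20, IL6, TNF, IL1A and IL1B. They were taken by symbol from the count table of each library, where all 10 were found among 58735 entries. Poly(A) RNA was sequenced from MDA-MB-468, an established triple-negative breast cancer cell line with amplified EGFR that the labels give as wild type. The 12 libraries form 4 groups of 3, named A, B and C: DMSO vehicle, docetaxel (10 nM) after 8 h, docetaxel (10 nM) after 24 h, and the 24 h combination of ipatasertib (5 µM) and tazemetostat (5 µM), called the combination below. Docetaxel stabilises microtubules, tazemetostat inhibits the histone methyltransferase EZH2 and ipatasertib inhibits the kinase AKT. Cells of the combination had 5 days in tazemetostat or DMSO before dosing, were moved to smaller plates and were dosed in medium with 2% FBS. The labels give neither the hours nor the medium of the DMSO libraries, and no serum or lead-in days for the docetaxel libraries. They have no arm for either inhibitor alone, so effects of drug, serum, plate and days of culture cannot be told apart.

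Cytokines of this group are small secreted proteins that are usually kept low in resting epithelium and are made quickly after stress or receptor signals. NF-kB and AP-1 factors drive their genes, and AU-rich elements in their mRNAs make most of the messages short-lived. CXCL8 and the CXCL1, CXCL2 and CXCL3 proteins attract neutrophils through the receptors CXCR1 and CXCR2, CCL2 attracts monocytes, and CCL20 attracts cells that carry CCR6. IL-6, TNF and the IL-1 proteins signal through receptors of their own and can feed back on the same genes in the cells that make them.

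The sequence before the start site is shown for 6 of the 7 genes that were higher at 24 h of docetaxel, because 4 of them share the core of a kappaB element, the DNA motif of NF-kB. The 250 bases before the RefSeq start site (GRCh38.p14) are written 5′ to 3′ in the direction of the gene. Capitals mark matches to the kappaB consensus or, in CXCL8, to its core GGAATTTCC.
CXCL8 (chr4:73740319-73740568, plus strand): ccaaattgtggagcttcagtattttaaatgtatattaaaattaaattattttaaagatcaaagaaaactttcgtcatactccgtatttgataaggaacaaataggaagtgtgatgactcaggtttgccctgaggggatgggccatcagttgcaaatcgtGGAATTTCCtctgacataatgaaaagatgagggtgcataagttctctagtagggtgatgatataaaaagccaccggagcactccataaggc
CXCL1 (chr4:73869143-73869392, plus strand): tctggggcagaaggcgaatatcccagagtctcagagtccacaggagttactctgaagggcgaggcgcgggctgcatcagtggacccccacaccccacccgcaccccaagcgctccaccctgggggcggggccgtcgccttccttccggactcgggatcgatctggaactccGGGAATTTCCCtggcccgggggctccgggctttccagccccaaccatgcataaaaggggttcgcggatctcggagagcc
CXCL2 (chr4:74099196-74099445, minus strand): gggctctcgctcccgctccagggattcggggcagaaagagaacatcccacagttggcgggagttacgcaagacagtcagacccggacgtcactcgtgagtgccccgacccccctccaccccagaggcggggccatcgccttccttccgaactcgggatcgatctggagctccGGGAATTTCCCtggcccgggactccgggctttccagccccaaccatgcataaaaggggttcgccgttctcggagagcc
CXCL3 (chr4:74038690-74038939, minus strand): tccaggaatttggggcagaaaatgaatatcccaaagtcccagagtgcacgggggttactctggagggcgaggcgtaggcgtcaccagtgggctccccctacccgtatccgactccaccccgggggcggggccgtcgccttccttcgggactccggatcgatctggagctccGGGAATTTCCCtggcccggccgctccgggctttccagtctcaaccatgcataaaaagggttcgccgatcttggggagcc
For IL6 and CCL20, which hold a kappaB consensus match without that core, 60 bases around the match are shown.
IL6 (chr7:22727102-22727161, plus strand): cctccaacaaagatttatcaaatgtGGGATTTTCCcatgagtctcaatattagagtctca
CCL20 (chr2:227813738-227813797, plus strand): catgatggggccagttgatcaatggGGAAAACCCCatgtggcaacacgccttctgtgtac

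RefSeq gave an upstream sequence for 9 of the 10 genes, all but CCL2. On either strand, the core GGAATTTCC was found in 4 of the 9, and these were CXCL8, CXCL1, CXCL2 and CXCL3. The same core occurred in 0.413% of 35116 upstream windows of this length in the table. The kappaB consensus was found in 5 of the 9, against 9.96% of all windows, and in CXCL1, CXCL2 and CXCL3 its match overlaps the core and reads on both strands. In CXCL8 the core lay at bases -91 to -83 from the start site, and in CXCL1 at -78 to -70. An AP-1 motif, TGANTCA, stood at -137 to -131 in CXCL8, against 6.57% of all windows with such a match, and TATAAA stood at -31 to -26, against 10.7%. TNF, the other gene higher at 24 h, had no kappaB match in the window and is not shown. TNF and CCL20 had TATAAA at -29 to -24, and IL1B had none of these motifs in the window. IL1A, which stayed below the filter on low counts, held the AP-1 motif too, at -12 to -6 from start site 1. From its start site 2 the motif lay at -105 to -99 and -55 to -49. TATAAA stood at -239 to -234 from start site 1 of IL1A. The windows of CXCL1, CXCL2 and CXCL3 resembled each other, with 82.1% identity between CXCL1 and CXCL2 over 223 aligned bases, 86.4% between CXCL1 and CXCL3 and 83.3% between CXCL2 and CXCL3. These matches describe the letters only.

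**Figure D1:**
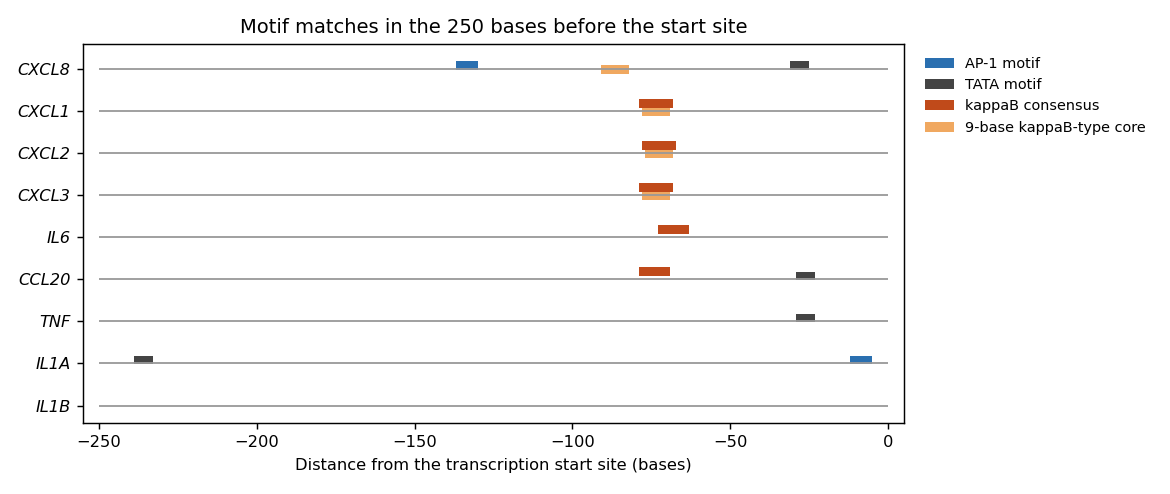
Motif matches in the 250 bases before the RefSeq start site of 9 cytokine genes, by distance from the start site in bases. The kappaB-type matches of CXCL8, CXCL1, CXCL2, CXCL3, IL6 and CCL20 all begin between -91 and -73.

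Total counts lay between 29820617 and 45807059 per library. Levels are in CPM, counts scaled to library size with TMM factors, and are given per library or with the SD over n = 3. Differences are log2 fold changes ± SE (approximate) from edgeR's quasi-likelihood test over 17780 genes, and a gene passed where the p adjusted by Benjamini and Hochberg's method was under 0.05. Since the labels name no separate cultures for the letters, the spread behind each p may be technical only. Mitochondrially encoded genes held 4.001% to 4.48% of the counts in DMSO, 8.20% to 8.997% at 8 h, 5.00% to 7.53% at 24 h and 7.71% to 9.30% in the combination; their part in the results was not tested. As markers of the line, 7 epithelial genes such as KRT8 and EGFR summed to at least 12625 CPM in every library, and of the receptors that are low in triple-negative lines PGR had at most 2 counts in a group. ESR1 had a mean of 1.86 CPM in DMSO and 0.842 in the combination, and ERBB2 was present at 100.6 CPM in DMSO and at least 71.04 in every other group. Of 6 markers of T cells, B cells and neutrophils, CD2, MS4A1 and FCGR3B had no count in any library, and the list summed to at most 0.414 CPM.

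The cytokine messages were rare. In DMSO the 10 genes together had 616 counts in 3 libraries, and 353 of these belonged to CXCL8. Per kilobase of exon, the level of CXCL8 was 1.43 ± 0.154 CPM per kb, above every library of the other genes. CXCL2 (0.392 ± 0.0667 CPM per kb), CXCL1 (0.331 ± 0.0424) and TNF (0.286 ± 0.0808) followed, and their libraries overlapped. CXCL3, CCL2 and CCL20 stood at 0.183, 0.133 and 0.0913 CPM per kb, each overlapping its neighbour in this order. Exon length was the union over all annotated transcripts, which for CXCL3 (2219 bases) and CCL2 (1986 bases) covers the whole gene. The longest protein-coding transcript of CXCL3 has 1075 bases, so the order of the genes after CXCL8 depends on the length used. IL6, IL1A and IL1B had 7, 4 and 1 counts over the whole DMSO group, where 3 counts correspond to 0.0286 CPM. Intervals and floors cover counting error only, since PCR copies were not marked.

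Of the 10 genes 8 passed the filter on low counts and 2, IL1A and IL1B, did not. IL6 and CCL20 reached the filter in all 3 libraries only at 24 h of docetaxel and CCL2 only in the combination, so for these 3 genes a difference was built into being tested. CXCL1, CXCL2 and CXCL3 are similar in their mRNA as well, with 90.5% identity between the longest transcripts of CXCL1 and CXCL2, 81.3% between CXCL1 and CXCL3 and 82.6% between CXCL2 and CXCL3, and shared runs of up to 97 bases. How reads that fit more than 1 of them were counted is not given, so each of the 3 values is uncertain. IL6 overlaps exons of STEAP1B and of the antisense gene AC073072.1 on the other strand. These had at most 18 and 3 counts in a group, and the strand setting of the counting is not given.

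At 8 h of docetaxel CXCL8 and TNF were lower than in DMSO and none of the 8 tested genes was higher, beside 24.8% of all genes lower and 22.5% higher, and both calls ended when single libraries were left out. At 24 h CXCL8, CXCL1, CXCL2, CXCL3, CCL20, IL6 and TNF were all higher, by between 2.50-fold and 8.07-fold, beside 20.2% of all genes higher. In the combination CXCL8, CXCL2 and CXCL3 were above DMSO by less than at 24 h of docetaxel, and CCL2 was 40.3-fold higher than in DMSO. For CXCL2 the call between these 2 treatments ended with DESeq2 (adjusted p = 0.146) and in other settings. In a bulk library, more cells that express a gene and more RNA per cell cannot be told apart.

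**Figure D2:**
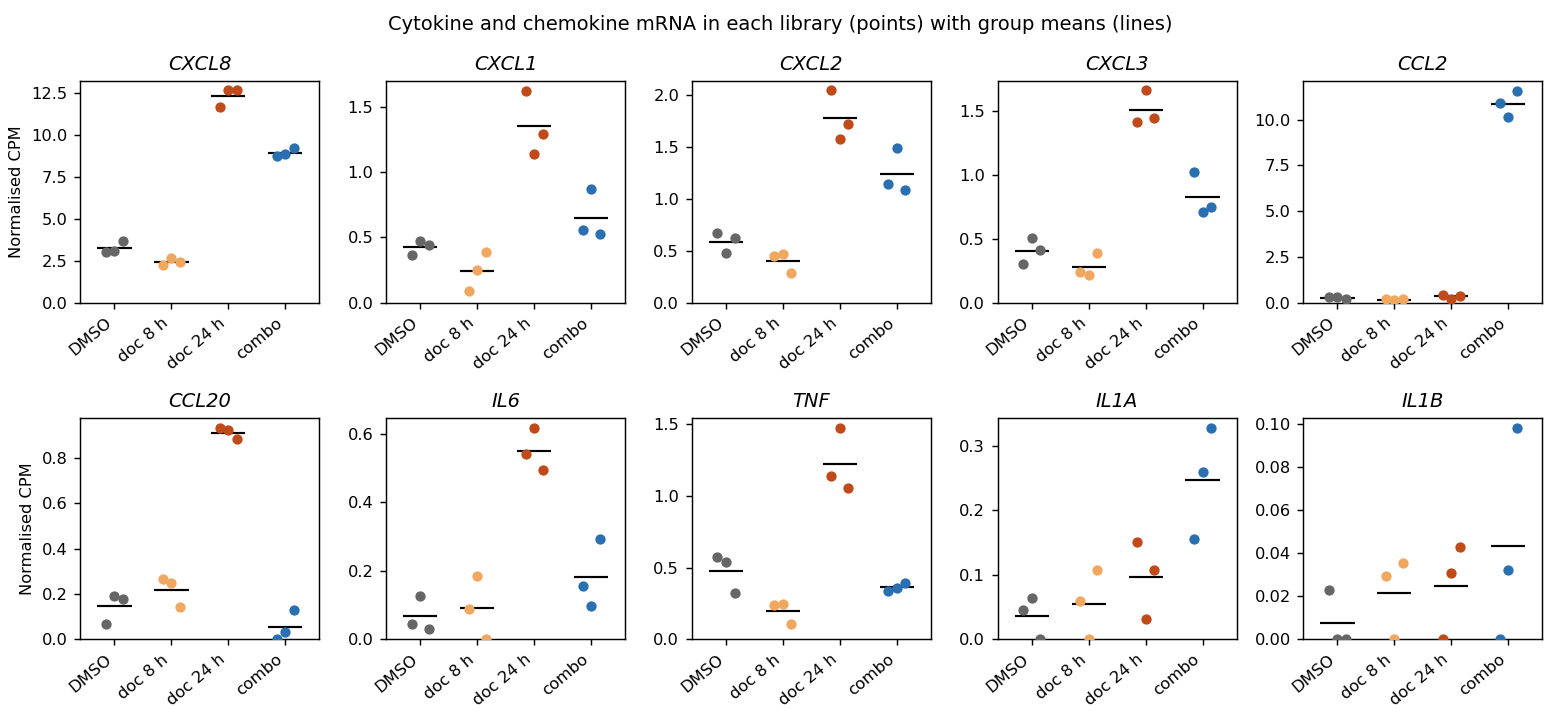
Normalised CPM of the 10 genes in each library (points, 3 per group) with the group mean (line); each panel has its own linear axis from 0. CXCL8 is highest at 24 h of docetaxel, where its libraries lie between 11.7 and 12.7 CPM, and CCL2 is highest in the combination, at 10.2 to 11.5 CPM.

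The neutrophil chemokine CXCL8 (chromosome 4, 73740506 to 73743716, GRCh38) was the most abundant gene of the set in DMSO, with 3.02, 3.11 and 3.66 CPM in libraries A, B and C. At 8 h of docetaxel its libraries had 2.25, 2.69 and 2.42 CPM, all below those of DMSO. At 24 h they had 11.7, 12.7 and 12.7 CPM, and in the combination 8.76, 8.87 and 9.21. No library of one group reached the range of another, so the order of levels was 8 h, DMSO, combination and 24 h. The change from DMSO at 8 h was -0.41 ± 0.13 on the log2 scale (adjusted p = 0.0108). At 24 h CXCL8 rose by 1.92 ± 0.10 (adjusted p = 8.49e-12), and in the combination by 1.46 ± 0.11 (adjusted p = 5.53e-11). The direct difference of the combination from 24 h of docetaxel was -0.47 ± 0.09 (adjusted p = 0.000152).

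CXCL1, CXCL2 and CXCL3, the closely related growth-regulated chemokines that lie within the same chemokine cluster on chromosome 4 (73869393 to 73871242, 74097035 to 74099293 and 74036589 to 74038807), followed CXCL8 at 24 h. Summed over the 3 genes, to set aside how reads were shared among them, the counts were 154 (DMSO), 86 (8 h), 518 (24 h) and 255 (combination). CXCL2 had 0.667, 0.475 and 0.620 CPM in DMSO and 2.04, 1.57 and 1.72 CPM at 24 h, without overlap. Its rise at 24 h was 1.57 ± 0.24 (adjusted p = 1.48e-05). In the combination it had 1.14, 1.49 and 1.08 CPM, a rise of 1.05 ± 0.25 (adjusted p = 0.000964). These libraries sat between those of DMSO and those of 24 h.

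CXCL3 went from 0.299, 0.507 and 0.413 CPM in DMSO to 1.41, 1.66 and 1.44 at 24 h, a rise of 1.91 ± 0.28 (adjusted p = 8.90e-06). In the combination it had 1.02, 0.712 and 0.751 CPM and rose by 1.05 ± 0.30 (adjusted p = 0.00445). CXCL1 had 0.368, 0.475 and 0.443 CPM in DMSO and 1.62, 1.14 and 1.29 at 24 h, and rose by 1.66 ± 0.32 (adjusted p = 0.000195). In the combination CXCL1 stood at 0.557, 0.874 and 0.523 CPM, above all DMSO libraries, but its difference of 0.61 ± 0.36 did not pass (adjusted p = 0.139). At 8 h the values of CXCL1, CXCL2 and CXCL3 were -0.84 ± 0.43, -0.56 ± 0.31 and -0.52 ± 0.37, and none of these passed.

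CCL20, the ligand of CCR6 (chromosome 2, 227805739 to 227817564), had 3, 6 and 6 counts in the DMSO libraries and 9, 8 and 4 at 8 h of docetaxel. At 24 h it had 31, 30 and 41 counts, or 0.912 ± 0.0264 CPM, clear of every other library. That rise was 2.68 ± 0.44 on the log2 scale (adjusted p = 3.33e-05), or 6.41-fold. In the combination CCL20 had 0, 1 and 4 counts. It did not pass against DMSO (-1.32 ± 0.75, adjusted p = 0.130) and was 16.0-fold lower than at 24 h of docetaxel (-4.003 ± 0.54, adjusted p = 9.05e-07). Of the 7 genes that were higher at 24 h, CCL20 had the largest difference between these 2 treatments.

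IL6, a cytokine that signals through IL6R and IL6ST to STAT3 (chromosome 7, 22725884 to 22732002), was close to absent outside 24 h of docetaxel. Its counts were 2, 4 and 1 in DMSO, 3, 6 and 0 at 8 h, and 18, 20 and 23 at 24 h. The libraries of the combination had 5, 3 and 9. The rise at 24 h was 3.01 ± 0.59 (adjusted p = 0.000238), or 8.07-fold, from 7 counts over the DMSO group. The combination differed from DMSO by 1.44 ± 0.73, which did not pass (adjusted p = 0.0901), and was lower than 24 h by 2.98-fold (-1.57 ± 0.50, adjusted p = 0.00829). With 7 counts as the base, the size of these folds is imprecise.

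TNF (chromosome 6, 31575567 to 31578336), the founding ligand of its receptor family and a strong activator of NF-kB, had 0.575, 0.539 and 0.325 CPM in DMSO. At 8 h of docetaxel it had 0.237, 0.247 and 0.107 CPM, all below DMSO, and at 24 h 1.14, 1.48 and 1.05, all above. The changes were -1.25 ± 0.40 (adjusted p = 0.0124) and 1.32 ± 0.30 (adjusted p = 0.000908). In the combination TNF stood at 0.340, 0.356 and 0.392 CPM, within the range of DMSO (-0.41 ± 0.36, adjusted p = 0.326). It was thus 3.33-fold lower in the combination than at 24 h of docetaxel (-1.74 ± 0.32, adjusted p = 5.05e-05).

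CCL2, the monocyte chemokine (chromosome 17, 34255218 to 34257203), had another pattern. It had 13, 9 and 7 counts in DMSO, 6, 4 and 5 at 8 h, and 14, 7 and 18 at 24 h. With the combination the counts were 352, 314 and 353, far above every other library. The level rose from 0.264 ± 0.0499 to 10.9 ± 0.686 CPM in the combination, a log2 fold change of 5.33 ± 0.20 (adjusted p = 2.37e-16). At 24 h of docetaxel it did not pass against DMSO (0.38 ± 0.32, adjusted p = 0.396), and the combination exceeded that group by 4.96 ± 0.19 (adjusted p = 4.00e-16). Per kilobase of the same union lengths, CCL2 reached 5.47 ± 0.345 CPM per kb in the combination, above the 3.93 ± 0.105 of CXCL8 there.

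Several markers of other cell types were also more abundant in the combination than in DMSO, and others were at or near 0 in both. Of 8 leukocyte and macrophage markers 2 were tested, CD14 and CSF1R, and the list summed to 54.3 to 56.9 CPM in DMSO, 25.9 to 27.6 at 8 h, 34.1 to 36.3 at 24 h and 38.5 to 45.1 in the combination. From DMSO to the combination CSF1R went from a mean of 2.73 to 15.4 CPM and CD14 from 52.3 to 26.9, while PTPRC went from 5 to 18 counts and CD163 from 0 to 4. AIF1 had no count in any library, and LYZ had 3 counts in DMSO and 0 in the combination. Of 7 fibroblast markers 4 were tested, and the summed level of all 7 was 22.4 to 24.7 CPM in DMSO, 12.996 to 14.3 at 8 h, 17.6 to 20.5 at 24 h and 27.5 to 28.5 in the combination. Their counts in DMSO and the combination were 0 and 392 for LUM, 185 and 467 for PDGFRA, 0 and 28 for DCN, 14 and 29 for PDGFRB, 0 and 9 for COL1A2, and 2 and 7 for COL3A1, whereas COL1A1 had 2339 and 1687. Of 5 endothelial markers 4 were tested, and the list summed to 21.8 to 24.4 CPM in DMSO, 11.9 to 17.8 at 8 h, 13.9 to 15.5 at 24 h and 39.01 to 40.3 in the combination. Most of that sum was KDR, with means of 22.2 CPM in DMSO and 36.4 in the combination, and CDH5 had 0.647 and 2.42 CPM, while the defining marker PECAM1 had 12 and 9 counts. The part of these genes in the result was not tested.

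IL1A and IL1B, the genes of interleukin-1 alpha and beta (chromosome 2, 112773915 to 112784590 and 112829751 to 112836903), stayed below the filter. IL1A had 2, 2 and 0 counts in DMSO, 2, 0 and 3 at 8 h, and 5, 1 and 5 at 24 h. Its counts with the combination were 5, 8 and 10. The libraries of the combination lay above those of DMSO, with a ratio of 6.49 (95% exact counting interval 2.22 to 25.8) from 23 against 4 counts. A two-sided exact permutation test gave p = 0.1, the smallest that 3 against 3 libraries allow. IL1B had 1, 2, 3 and 4 counts in all of the DMSO, 8 h, 24 h and combination libraries. A change was not detectable at this depth, and the ratio of the combination to DMSO was 4.52, with an interval of 0.447 to 222.

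**Figure D3:**
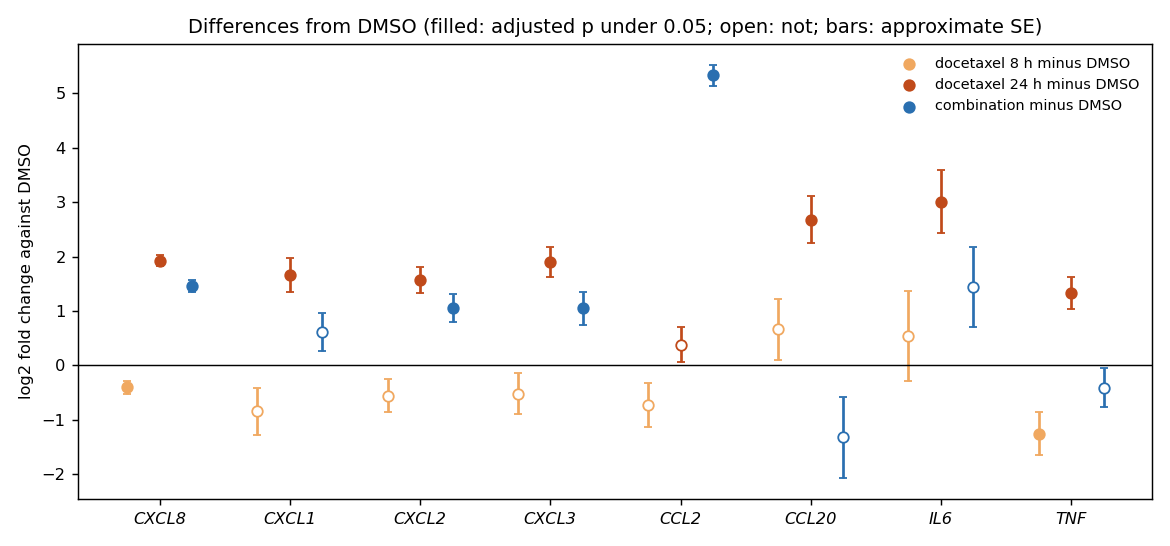
Log2 fold changes from DMSO of the 8 tested genes (points) with approximate SE (bars); filled points passed the test. Of the 8 genes, 7 are above 0 and filled at 24 h of docetaxel, and CCL2 stands at 5.33 in the combination.

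Read against the rest of the transcriptome, the 8 h counts of these genes were few. At 8 h 2 of 8 were lower and none higher, where 24.8% of all genes tested were lower and 22.5% higher, so the share lower was near the background. When only library totals were used for scaling, 38.1% of all genes were lower and 12.9% higher, and the median of all genes stood at -0.18 instead of -0.02, while the same number of cytokine genes passed. Both calls at 8 h rest on few libraries. CXCL8 lost its call without DMSO library C (adjusted p = 0.0930) or docetaxel 8 h library A (0.0601), and TNF without DMSO library A (0.0680) or docetaxel 8 h library C (0.0633). Without docetaxel 8 h library C, CXCL1 became lower at -1.33 (adjusted p = 0.0329).

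At 24 h of docetaxel 7 of the 8 were higher, against 20.2% of all genes higher and 22.7% lower. The median log2 fold change of the 8 was 1.78, beside 0.01 over all genes, and 4.60% of all genes differed by at least 2-fold in either direction. In the combination 4 of 8 were higher and none lower, against 31.4% of all genes in each direction, so the number of calls was not far from the background, while CCL2 alone accounted for the largest size. The median of the 8 was 1.05, beside 0.01 over all genes. CCL20 was lower than DMSO at -2.88 (adjusted p = 0.0207) without combination library C, and IL6 was higher at 2.13 (adjusted p = 0.0469) without DMSO library B. The 3 genes tested through a group where they are high are part of these counts, which therefore describe the set and support nothing further.

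The direct comparison of the docetaxel time points gave all 8 genes higher at 24 h than at 8 h. Of all genes 16.6% were higher and 18.3% lower (30.3% and 9.33% with library totals). IL6 and CCL20 reached the filter in all 3 libraries only at 24 h, so for them this difference was built into being tested. TNF differed by 2.58 ± 0.35 (adjusted p = 4.64e-06), CXCL1 by 2.50 ± 0.36 (adjusted p = 9.77e-06), CXCL3 by 2.42 ± 0.30 (adjusted p = 1.43e-06) and CXCL8 by 2.33 ± 0.11 (adjusted p = 3.12e-13). CXCL2, CCL20 and IL6 differed by 2.13 ± 0.26, 2.02 ± 0.41 and 2.48 ± 0.56, with adjusted p of at most 0.00136. For CCL2 the difference was 1.10 ± 0.37 (adjusted p = 0.0248), from 15 to 39 counts. The CCL2 call ended with DESeq2 (adjusted p = 0.0538), without the filter (0.0537), and without docetaxel 8 h library B (0.0985), docetaxel 24 h library A (0.0875) or C (0.106).

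Between the treatments at 24 h, CCL2 was higher in the combination and the other 7 tested genes were higher with docetaxel. Of all genes 32.1% were higher in the combination and 31.7% lower. CCL2 reached the filter in all 3 libraries only in the combination, and IL6 and CCL20 only at 24 h of docetaxel. For these 3 genes a difference between the treatments was thus built into being tested. CXCL8, CCL20, TNF and IL6 are given above, and the differences of the others were those of CXCL1 (-1.05 ± 0.30, adjusted p = 0.00442), CXCL3 (-0.85 ± 0.25, adjusted p = 0.00517) and CXCL2 (-0.52 ± 0.22, adjusted p = 0.0420). The CXCL2 call ended with DESeq2 (adjusted p = 0.146) and without the filter (0.0609). It also ended without combination library A (0.118) or C (0.151) and without docetaxel 24 h library A (0.143) or C (0.0776).

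The make-up of the cytokine messages differed most in the combination. CXCL8 held 53.8% to 62.3% of the summed counts of the 10 genes in the DMSO libraries, 58.0% to 60.8% at 8 h and 58.6% to 63.1% at 24 h of docetaxel. The related genes CXCL1, CXCL2 and CXCL3 together held 24.7% to 25.3%, 19.8% to 26.3% and 21.5% to 25.5% in the same groups. The sums themselves were 616, 388 and 2259 counts, and the ranges of both shares overlapped among these groups. CCL2 held 3.52% to 5.53% in DMSO, 2.80% to 4.58% at 8 h and 1.06% to 2.11% at 24 h, the last without overlap. In the combination the sum was 2196 counts, of which CCL2 held 44.4% to 47.4% and CXCL8 37.9% to 38.8%, and all 3 libraries stood apart from the other 9.

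**Figure D4:**
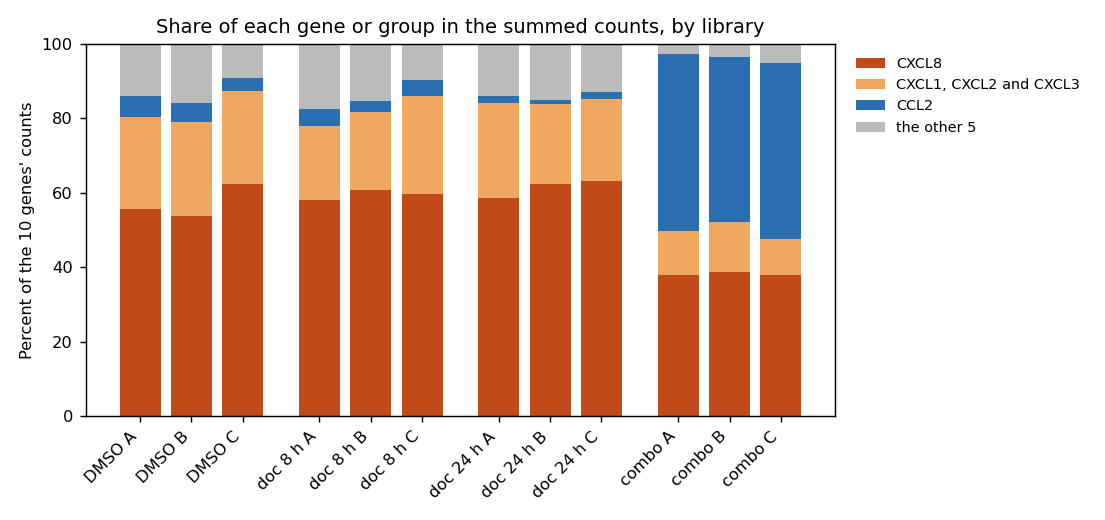
Percent of the summed counts of the 10 genes that fell to CXCL8, to CXCL1, CXCL2 and CXCL3 together, to CCL2 and to the other 5 genes, in each of the 12 libraries. CCL2 takes 44.4% to 47.4% in the combination and at most 5.53% in every other library.

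Genes with a like pattern were sought for the 2 most abundant of the tested genes, CXCL8 and CCL2, by the distance between their 3 log2 fold changes from DMSO, among tested genes with a mean of at least 1 CPM over the 12 libraries. Nearest to CXCL8 were LINC-PINT (distance 0.497), CXCL2 (0.557) and AREG (0.629), which encodes the EGFR ligand amphiregulin. AREG had 1.32 CPM in DMSO, 1.33 at 8 h, 4.97 at 24 h and 2.63 in the combination. Nearest to CCL2 were PDK4 (0.327), MEIS3 (0.474) and ALOX5 (0.480). PDK4, a kinase that restrains pyruvate oxidation, had 0.194, 0.0929, 0.221 and 8.44 CPM in the same order of groups, beside 0.264, 0.160, 0.341 and 10.9 for CCL2. Outside the combination PDK4, MEIS3, ALOX5 and CCL2 had means of at most 0.341 CPM, so their fold changes with docetaxel rest on low levels. These genes reached the minimum of 1 CPM only through the combination, so a high level there was built into the search.

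Few other chemokines were measurable. Counts in this list and in the lists below stand beside the shares over all genes tested. These were 22.5% higher and 24.8% lower at 8 h, 20.2% and 22.7% at 24 h, and 31.4% each way in the combination. No list was tested as a set. Of 13 further CXC and CX3C chemokines 3 were tested, and none was called at 24 h of docetaxel. CX3CL1, a membrane-bound chemokine, fell at 8 h by 0.35 and rose by 0.16 in the combination, CXCL16 rose by 0.19 at 8 h, and CXCL11 passed in none of the 3 comparisons with DMSO. CXCL5 and CXCL6, further ligands of the neutrophil receptors, had at most 4 and 3 counts in a group. Of 14 CC chemokines 3 were tested. CCL28, a chemokine of mucosal epithelium, fell by 0.42 at 8 h, 0.32 at 24 h and 0.14 in the combination, CCL22 fell by 0.59 at 24 h, and CCL5 fell by 2.08 in the combination, from 31 to 6 counts (adjusted p = 0.0056). The mean of CCL5 exceeded the filter threshold of 0.306 CPM only at 24 h of docetaxel, so this fall lies between low levels.

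The receptors of the neutrophil chemokines were barely present, with at most 6 counts of CXCR1 and 4 of CXCR2 in a group. Of the 14 receptors and regulators 9 were tested, of which 3 rose and 4 fell at 8 h, 1 rose and 3 fell at 24 h, and 5 rose and 2 fell in the combination. IL6R, the ligand-binding chain of the IL-6 receptor, went from 1.53 ± 0.0735 CPM in DMSO to 2.27 ± 0.436 at 8 h, 3.12 ± 0.539 at 24 h and 7.25 ± 0.980 in the combination. It passed in each of the 3 comparisons with DMSO, with log2 fold changes of 0.57, 1.03 and 2.24. Its signalling partner IL6ST fell by 0.70 at 8 h and by 0.23 at 24 h and rose by 0.27 in the combination. IL1RN, the antagonist of the IL-1 receptor, stood at 2.62 ± 0.407 CPM in DMSO and 7.32 ± 0.423 in the combination (1.496 ± 0.13, adjusted p = 1.58e-09) and did not pass at 8 h or 24 h of docetaxel. IL1R1, the receptor that signals for IL-1, fell by 0.39 at 8 h and 0.35 at 24 h.

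Of 10 genes of IL-1 and TNF release, all tested, 4 rose and 2 fell at 8 h, 3 rose and 1 fell at 24 h, and 6 rose and 2 fell in the combination. GSDMD, the pore former through which IL-1 beta leaves the cell, rose by 0.29 at 8 h and by 0.59 in the combination, and the inflammasome adaptor PYCARD rose by 0.63, 0.50 and 1.007 in the 3 comparisons. AIM2, a sensor of cytosolic DNA, had 2 counts in DMSO and 113 in the combination, a ratio of 63.8 with a counting interval of 17.3 to 533. Of 8 other IL-1 family ligands 3 were tested: 1 rose at 8 h, and 2 rose at 24 h and in the combination. IL18 rose by 0.40 at 24 h and by 1.44 in the combination, to 52.0 ± 2.78 CPM. IL37, the gene that rose at 8 h, had 0 counts in DMSO, 10 at each docetaxel time point and 139 in the combination. The last was at least 52.3-fold higher than the 3-count floor over the DMSO group, and IL36RN did not pass against DMSO. At 8 h IL37 had 0.111 ± 0.0967 CPM, and its rises with docetaxel rest on few counts. The means of AIM2 and IL37 exceeded the filter threshold of 0.306 CPM only in the combination, so for both a difference was built into being tested.

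Among 12 other cytokines of the IL-6 and colony-stimulating kind 7 were tested, of which 2 rose and 1 fell at 8 h, 4 rose at 24 h and 5 rose in the combination. LIF, an IL-6 family cytokine, had 31.8 ± 3.05 CPM in DMSO, 41.0 ± 6.90 at 24 h and 82.0 ± 11.4 in the combination. It rose by 0.47, 0.36 and 1.36 in the 3 comparisons. CSF1, the growth factor of macrophages, fell by 0.75 at 8 h and rose by 1.28 in the combination, to 72.3 ± 2.16 CPM. TSLP rose by 3.01 ± 0.41 in the combination, from 13 to 93 counts. Its mean exceeded the filter threshold of 0.306 CPM only there, so a difference was built into being tested.

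The genes of NF-kB itself moved both ways. Of 18 tested subunits, inhibitors and feedback genes 1 rose and 6 fell at 8 h, and 7 rose and 5 fell at 24 h. In the combination 7 rose and 8 fell, where 31.4% of all genes were called in each direction. The medians were -0.03, 0.07 and -0.09 in this order. TNFAIP3, a deubiquitinase that damps the pathway, rose from 2.44 ± 0.290 to 5.30 ± 0.0229 CPM at 24 h (1.11 ± 0.17) and by 0.64 ± 0.18 in the combination. NFKBIA, the inhibitor IkB alpha, rose by 0.19 at 24 h and fell by 0.30 in the combination. NFKB1 fell in each of the 3 comparisons, by 0.40, 0.49 and 0.50, and so did TNFAIP2, by 0.41, 0.45 and 0.57. SOD2 fell by 0.23 at 24 h and by 0.75 in the combination, and the adhesion molecule ICAM1 fell by 0.46 at 8 h and rose by 0.33 in the combination.

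Of 18 tested genes that carry receptor signals to NF-kB and MAP kinases 2 rose and 5 fell at 8 h, 1 rose and 5 fell at 24 h, and 3 rose and 7 fell in the combination. IRAK1 and the kinase CHUK fell by 0.56 and 0.67 in the combination. TLR4, the receptor of bacterial lipopolysaccharide, had 1, 2 and 4 counts in DMSO, at 8 h and at 24 h and 396 in the combination, a ratio to DMSO of 447 with a counting interval of 79.8 to 17705. Of 13 genes that act on cytokine mRNA stability 5 rose and 4 fell at 8 h, 3 rose and 4 fell at 24 h, and 3 rose and 8 fell in the combination. ZFP36, which promotes decay of AU-rich messages, rose by 0.22, 0.26 and 0.41 in the 3 comparisons, while HNRNPD and ELAVL1 fell by 0.65 and 0.46 in the combination. The ribonuclease gene ZC3H12C had 3 counts in DMSO and 396 in the combination, a ratio of 149 with an interval of 50.6 to 726. The means of TLR4 and ZC3H12C exceeded the filter threshold of 0.306 CPM only in the combination, so for both a difference was built into being tested.

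Of 14 AP-1, C/EBP and STAT genes 1 rose and 9 fell at 8 h, and 6 rose and 5 fell both at 24 h and in the combination. Over all genes tested, 22.5% rose and 24.8% fell at 8 h, 20.2% and 22.7% at 24 h, and 31.4% each way in the combination. FOSL1, an AP-1 subunit, was the gene that rose at 8 h, by 1.16 ± 0.08, and it rose by 1.03 ± 0.08 at 24 h and 2.08 ± 0.08 in the combination. ATF3, a stress-induced factor, had 17.8 ± 1.11 CPM in DMSO, 14.6 ± 1.32 at 8 h, 46.9 ± 2.60 at 24 h and 33.7 ± 3.59 in the combination, the same order of levels as CXCL8. CEBPD rose by 0.75 at 24 h and by 0.88 in the combination and did not pass at 8 h. For every rise or fall named in these lists the adjusted p was 0.0432 or lower (edgeR).

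**Figure D5:**
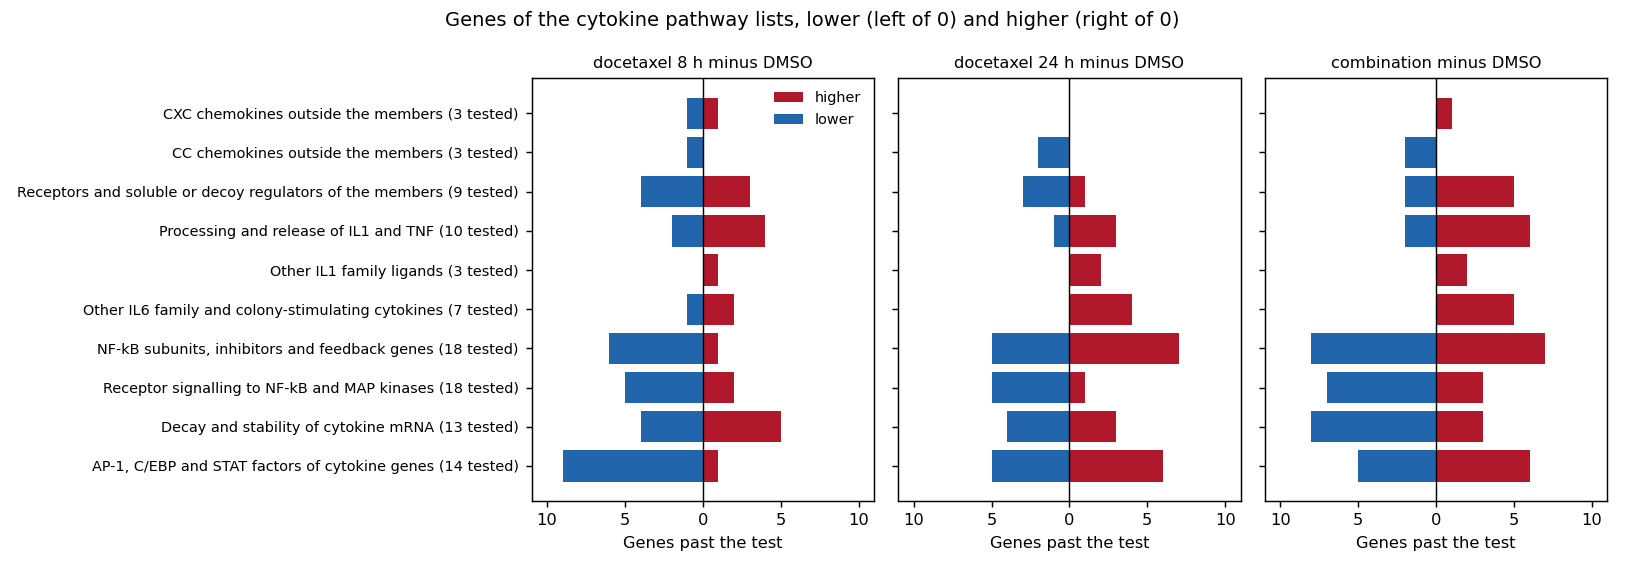
Number of genes that passed the test in each list of cytokine pathway genes, lower (left of 0) and higher (right of 0), in the 3 comparisons with DMSO; the number tested stands beside each name. At 8 h of docetaxel 9 of 14 AP-1, C/EBP and STAT genes were lower and 1 was higher, beside 24.8% of all genes lower and 22.5% higher.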

How the data were processed

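Poly(A) RNA-seq of 12 MDA-MB-468 libraries, 3 in each of 4 groups taken from the labels, was analysed from the read counts per gene that the authors deposited. The submitters' processing notes name fastp, HISAT2 2.0.5, DESeq2 and hg38. No source used here names the program that counted reads, its annotation or whether it used strand. Counts were fitted together in edgeR 4.0.16 (R 4.3.3) with TMM factors, filterByExpr (minimum count 10) and the quasi-likelihood test, and p-values were adjusted over all 17780 genes tested. SEs were taken from the size of the fold change and its F statistic. The fit was tested on simulated data with the same spread for every gene, so that test does not cover spread that differs between genes. Gene positions and exon lengths came from GENCODE on GRCh38, matched by gene symbol.

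Totals per library were 29820617 to 45807059 counts, so the rare genes are limited by counting error. The 10 genes and the pathway lists were chosen with earlier results of these data known. From each list the text names up to 3 genes with the smallest adjusted p over the comparisons with DMSO, together with 14 genes set by name. For the like-pattern search, 3 neighbours each of the 2 tested genes with the highest mean CPM are named. The comparisons with DMSO share its 3 libraries. Alternatives were RLE factors, library totals, DESeq2 1.42.0, no filter, fits of 2 groups, a replicate block, and each library left out.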

Additional observations from a re-analysis of the deposited data

Results flagged for a closer look

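For all 8 tested genes the effect of docetaxel differed between its time points, by the direct test of 24 h against 8 h with edgeR. Of all genes 16.6% were higher at 24 h and 18.3% lower. IL6 and CCL20 reached the filter on low counts in all 3 libraries only at 24 h, so their difference was built into being tested. The effect at 24 h minus that at 8 h, on the log2 scale, was 2.58 for TNF, 2.50 for CXCL1, 2.48 for IL6, 2.42 for CXCL3 and 2.33 for CXCL8. It was 2.13 for CXCL2, 2.02 for CCL20 and 1.10 for CCL2. The CCL2 call ended with DESeq2 (adjusted p = 0.0538), without the filter (0.0537), and without docetaxel 8 h library B, docetaxel 24 h library A or docetaxel 24 h library C, and the other 7 calls held in all settings run. TNF and CXCL8 were lower than DMSO at 8 h and higher at 24 h, while CCL2 passed against DMSO at neither time. The DMSO libraries serve both time points, and the labels give no vehicle for each time.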

How the results depend on the processing

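The counts of these genes that passed kept within 1.5 times under RLE factors, library totals, DESeq2, no filter and the fits of 2 groups, and there no value changed sign. With 1 library left out, values that did not pass could change sign. IL6 at 8 h against DMSO went from 0.53 to -0.40 without docetaxel 8 h library B. Of 234 values of single genes under these settings and the replicate block, 229 kept their call and 5 lost it; of 480 with 1 library left out, 466 kept it, 11 lost it and 3 gained it. The genes lower at 8 h of docetaxel numbered 1 to 2 with 1 library left out, and those lower in the combination 0 to 1. With library totals, 2288 genes of all those tested were higher and 6782 lower at 8 h than in DMSO, and 5387 were higher and 1659 lower at 24 h than at 8 h; the cause was not tested. The fits of 2 groups gave no value for 6 results, since the gene did not pass the filter there. Library letters did not pair the samples: of 18 pairs with the same letter 1 had a correlation of deviations above 0.1, and the range was -0.13 to 0.14. With the letter as a replicate block, the difference of CXCL2 between the combination and 24 h of docetaxel was -0.53 (adjusted p = 0.0507) and lost its call, and no other call of the 8 genes changed. Depth limits IL1A, IL1B and IL6, which had 4, 1 and 7 counts in the DMSO group.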

Other observations

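Chromosomal neighbours were counted within 400 kb of each gene. Between CXCL8 and CXCL2 on chromosome 4 lie CXCL6, PF4V1, PF4, PPBP and CXCL5, chemokine genes of the same family, and none had more than 4 counts in any group. CXCL8, CXCL1, CXCL2 and CXCL3 of the same stretch had 1390, 151, 199 and 168 counts at 24 h of docetaxel. Beside CCL2 on chromosome 17, the monocyte and eosinophil chemokine genes CCL7, CCL11, CCL8, CCL13 and CCL1 had no count in any library except for 1 count of CCL7 in the combination, where CCL2 had 1019.

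TNF lies between the lymphotoxin genes LTA and LTB on chromosome 6. LTB had 27 counts in DMSO, 12 at 8 h, 56 at 24 h and 98 in the combination, while TNF had 53, 19, 135 and 34. LTA had 11, 3, 26 and 16 counts. Near IL1A and IL1B on chromosome 2, the IL-36 genes IL36A and IL36B had no count in any library and IL36G had 7 counts in the combination and at most 1 in any other group.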
